A study of Mus musculus with 2 samples.

Results

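The CXC chemokines are small secreted proteins, named for the CXC spacing of their first cysteines, that direct white blood cells along a gradient. Their genes were described here in spleen monocytes of nephrectomised and sham-operated mice. The set comprised the 10 genes Cxcl1, Cxcl2, Cxcl3, Cxcl5, Cxcl9, Cxcl10, Cxcl11, Cxcl13, Cxcl14 and Cxcl16, taken by gene name from the array files and covered by 14 of 56605 probes. They stood among 24813 named genes. Of the 10 genes, 6 were well above background on both arrays, 3 (Cxcl9, Cxcl10 and Cxcl13) only on the array of the nephrectomised mice, and 1 (Cxcl14) only on the sham array.

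The 5/6Nx group was ICR mice, an outbred stock, after 5/6 nephrectomy, an operation that removes most of the kidney tissue and serves as a model of chronic kidney disease. The sham group was ICR mice after a sham operation. In both groups spleen cells stained for CD11b and Ly6C were sorted by flow cytometry 8 weeks after surgery, and their total RNA was hybridised to 1 single-colour Agilent array per group. The number of mice behind each RNA sample and their age are not given in the sources used here. With 1 array per group no difference below has a replicate check, no test was possible, and differences between the operations cannot be told apart from differences between individual mice or sorts. In such bulk RNA, fewer cells of a type and less RNA per cell cannot be told apart either.

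CXC chemokines fall into classes by receptor. Ligands with the amino acids glutamate, leucine and arginine before the first cysteine (the ELR motif) act on CXCR2 and draw neutrophils, and their genes respond to NF-kappaB. CXCL9, CXCL10 and CXCL11 lack the motif, are induced by interferons, and bind CXCR3 on activated T cells and natural killer (NK) cells. CXCL13 brings B cells to follicles through CXCR5, CXCL16 is a membrane-bound ligand of CXCR6 that is shed by ADAM10, and CXCL14 is a ligand made mainly by epithelial and stromal cells.

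The stretches before the transcription start are shown for 5 genes because these are the windows of the set in which a searched NF-kappaB, interferon or STAT motif was found. Each is the 250 bases before the start in RefSeq on GRCm38.p6, written 5′ to 3′ on the gene's strand, with every match to a searched motif in capitals. The windows are chr5:90890995-90891244 (plus strand) for Cxcl1, chr5:90903649-90903898 (plus) for Cxcl2, chr5:90785851-90786100 (plus) for Cxcl3, chr5:92348890-92349139 (minus) for Cxcl10 and chr13:56296552-56296801 (minus) for Cxcl14.
Cxcl1: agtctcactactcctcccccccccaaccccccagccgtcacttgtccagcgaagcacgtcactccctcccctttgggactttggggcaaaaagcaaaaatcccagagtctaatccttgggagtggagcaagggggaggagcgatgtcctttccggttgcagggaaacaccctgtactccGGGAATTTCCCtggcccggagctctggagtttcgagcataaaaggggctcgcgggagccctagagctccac
Cxcl2: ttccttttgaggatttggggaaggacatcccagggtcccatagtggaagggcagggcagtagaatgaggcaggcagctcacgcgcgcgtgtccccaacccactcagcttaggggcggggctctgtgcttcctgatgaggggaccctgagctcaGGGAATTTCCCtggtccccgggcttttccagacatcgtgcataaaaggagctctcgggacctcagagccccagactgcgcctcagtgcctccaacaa
Cxcl3: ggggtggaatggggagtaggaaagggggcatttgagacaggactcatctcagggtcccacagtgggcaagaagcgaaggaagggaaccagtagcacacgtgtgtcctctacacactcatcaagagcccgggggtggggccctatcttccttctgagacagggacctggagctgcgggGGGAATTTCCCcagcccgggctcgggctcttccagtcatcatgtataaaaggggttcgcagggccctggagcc
Cxcl10: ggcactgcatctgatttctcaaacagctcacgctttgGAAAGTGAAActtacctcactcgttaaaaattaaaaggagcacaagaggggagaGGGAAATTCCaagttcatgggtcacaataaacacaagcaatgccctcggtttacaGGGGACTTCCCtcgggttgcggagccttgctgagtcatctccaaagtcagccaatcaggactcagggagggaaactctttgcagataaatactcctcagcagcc
Cxcl14: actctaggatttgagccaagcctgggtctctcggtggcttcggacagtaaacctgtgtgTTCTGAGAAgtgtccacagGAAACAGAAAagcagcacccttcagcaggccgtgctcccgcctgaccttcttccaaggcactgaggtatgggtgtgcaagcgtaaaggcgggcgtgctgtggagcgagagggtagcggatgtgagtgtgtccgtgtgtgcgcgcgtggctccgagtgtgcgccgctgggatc

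Both strands were searched, from 250 bases before to 50 bases after the start, for 3 motifs: the core of the interferon-stimulated response element (ISRE: GAAA, any 2 bases, GAAA), the STAT core TTCNNNGAA, and the NF-kappaB consensus. Of 32851 mouse promoters of that length, 3.44% held the ISRE core, 8.30% the STAT core and 8.46% the NF-kappaB consensus. RefSeq windows were at hand for 7 of the 10 genes; Cxcl5, Cxcl11 and Cxcl16 are named only. The neighbours Cxcl1, Cxcl2 and Cxcl3 each held the same 11 bases, gggaatttccc, which match the NF-kappaB consensus on both strands, with their first base at -71, -97 and -73. Cxcl10 held an ISRE core at -213, an NF-kappaB match at -159 and a further overlapping pair of NF-kappaB matches from -104. In Cxcl14 a STAT core began at -191 and an ISRE core at -172. The windows of Cxcl9 and Cxcl13 held none of the 3. These matches describe letters in these windows, and no binding was measured.

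Expression is given as the processed intensity of each probe, the spot's brightness after background subtraction. For differences, log2 intensities were set relative to the 75th percentile of each array, an intensity of 544.5 on the 5/6Nx array and 439.2 on the sham array, so that a difference of 0 means the same place relative to that percentile. Equal intensities therefore give a difference below 0. Of 59305 spots, the software called 67.0% on the 5/6Nx array and 63.0% on the sham array well above background. Among 283 bright probes printed 10 times, single spots differed between the arrays with an SD of 0.0594 on the log2 scale around each probe's mean difference, and the software put the error of a bright signal at 10% of its value. Both describe the spots only, not the mice. Levels of different probes are not comparable, since probes differ in how strongly they hybridise.

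**Figure D1:**
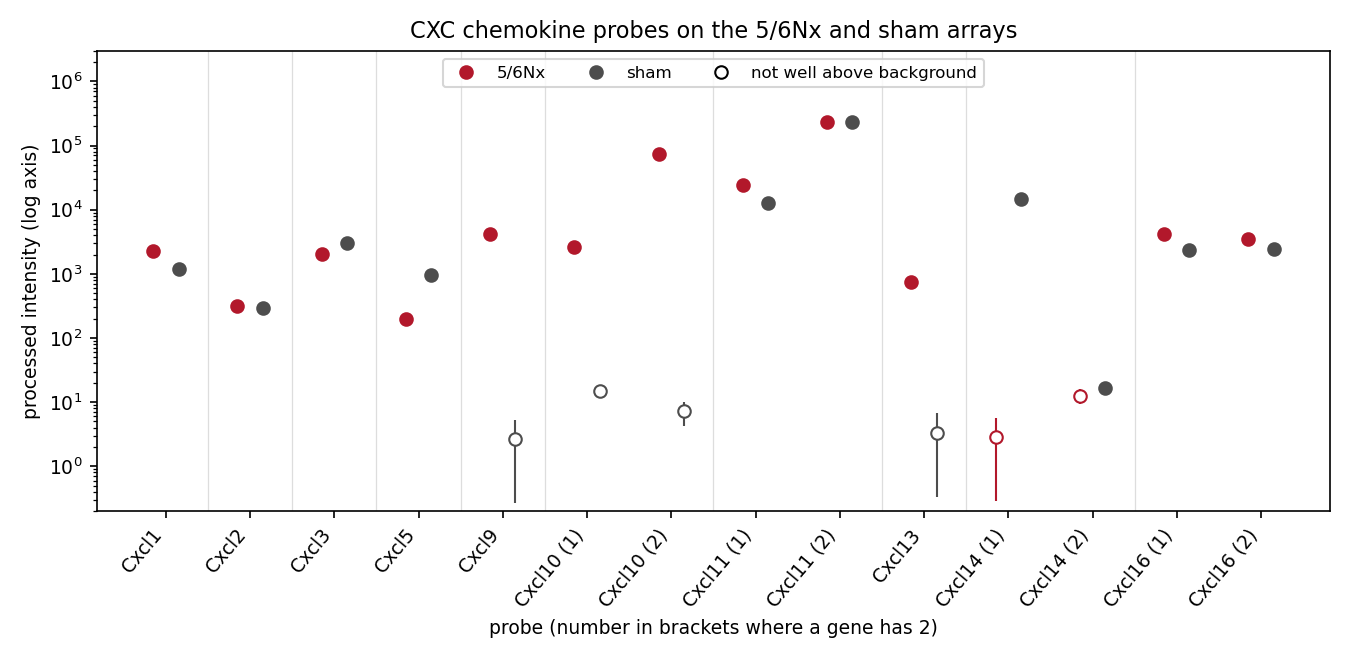
Processed intensity (log axis) of the 14 CXC chemokine probes on the 5/6Nx array (red) and the sham array (grey), with bars for the software's error of each signal and open points where the probe was not well above background. The probes of Cxcl9, Cxcl10 and Cxcl13 are filled on the 5/6Nx array and open on the sham array, and those of Cxcl14 are open on the 5/6Nx array and filled on the sham array.

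The ELR ligands did not share a direction. Cxcl1, a ligand that draws neutrophils, had an intensity of 2297 on the 5/6Nx array and 1168 on the sham array (software errors 230 and 117), at chr5:91322080-91322139 on the build mm9. The difference was 0.67 on the log2 scale, or 1.59-fold higher on the 5/6Nx array, and 2963 of the 15715 genes measured on both arrays had a higher one. It passed 2-fold under spike-in scaling and under no other alternative tried.

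Cxcl2, the neighbour of Cxcl1 with the same activity, had nearly the same intensity on both arrays. Its probe at chr5:91334534-91334593 read 313.1 on the 5/6Nx array and 290.7 on the sham array. After scaling, the difference was -0.20, no larger than the software's error of that difference, 0.21. Its sign is not settled by the scaling, since it came to 0.23 when the arrays were aligned on their spike-in probes.

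Cxcl3 was dimmer on the 5/6Nx array. This further ELR ligand of the same cluster had an intensity of 2023 on the 5/6Nx array and 3011 on the sham array at chr5:91216694-91216753. The difference of -0.88 was 1.85-fold lower, short of the 2-fold used for counting, which it passed under median scaling alone (-1.03).

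Cxcl5, an ELR ligand best known from epithelial cells and platelets, differed most among the 6 genes measured on both arrays. Its probe at chr5:91190490-91190549 had an intensity of 201.0 on the 5/6Nx array and 956.0 on the sham array. The difference was -2.56, or 5.90-fold lower on the 5/6Nx array, and 239 of 15715 genes had a lower one. It was the only one of the 6 at least 2-fold apart: 0 of 6 were higher by that much, against 12.2% of all genes measured on both arrays, and 1 of 6 was lower by that much, against 11.0%. The count of 1 of 6 is close to that background.

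Cxcl9 and Cxcl10, ligands of CXCR3 induced by interferon gamma, had bright probes on the 5/6Nx array against background on the sham array. Cxcl9 had an intensity of 4242 on the 5/6Nx array. On the sham array its probe, at chr5:92752191-92752250, sat at the surrogate value of 2.65 that the software gives to spots at background. A gene seen on 1 array only has a bound in place of a fold. The bound sets the bright value against either the dim probe's reading or the detection limit of the dim array, whichever is higher. The limit is taken as the dimmest signal called well above background, an intensity of 13.7 for 5/6Nx and 12.8 for sham. Calls are made per spot, and some spots slightly above that limit were not called. By that bound Cxcl9 was at least 268-fold higher with 5/6Nx.

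Cxcl10 had 2 probes, and both were bright on the 5/6Nx array only. The probe of the RefSeq transcript, at chr5:92775781-92775840, had an intensity of 74148 on the 5/6Nx array and 7.16 on the sham array, which was not well above background. The bound was at least 4682-fold higher. The other probe, designed on a cDNA clone and lying at chr5:92776616-92776675, had 2645 on the 5/6Nx array and 14.8 on the sham array. It was again not called well above background on the sham array, and its 2 readings were 144-fold apart after scaling.

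The 2 probes of Cxcl11, the CXCR3 ligand next to Cxcl10, did not show that contrast, and they disagreed. The probe at chr5:92788567-92788626 had an intensity of 232487 on the 5/6Nx array and 231326 on the sham array, a difference of -0.30. The probe at chr5:92788640-92788699 had 24248 on the 5/6Nx array and 12644 on the sham array, a difference of 0.63. The brighter probe stood for the gene, and its sign turned to 0.13 under loess normalisation and under spike-in scaling, while the mean over both probes was 0.16. RefSeq annotates Cxcl11 as a transcribed pseudogene in the C57BL/6J genome, and what the ICR stock carries was not analysed here.

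The Cxcl11 probes were also the only ones of the set that share sequence with probes of other genes, so the relevant 30 bases of each are shown, with shared bases in capitals. Positions are counted from the 5′ end of the 60-base probe. The first window is positions 14 to 43 of the probe at chr5:92788567-92788626, inside a run of 31 bases that is also in the probe of Glrx2. The second is positions 24 to 53 of the probe at chr5:92788640-92788699, with 20 bases also in the probe of Fam109b.
Cxcl11, first probe: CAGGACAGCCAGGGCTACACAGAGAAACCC
Cxcl11, second probe: gaaagGCAGAGGCAGGAGGATCTCTtgagt
The first probe shared at least 20 bases in a row with probes of 8 other genes and the second with 1, while the other 12 probes of the set shared none. Only probes of this array were compared, so these counts do not cover stretches shared with other transcripts. Across the array 3074 of 56605 probes (5.43%) shared such a stretch with a probe of another gene. The intensities of Cxcl11 are therefore uncertain, and the part of cross-hybridisation in them was not tested. Between probes of different CXC chemokines the longest common stretch was 7 to 10 bases.

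Cxcl13, the B cell attractant of lymphoid follicles, was also above background on the 5/6Nx array only. It had an intensity of 755.6 on the 5/6Nx array and a surrogate value of 3.33 on the sham array, at chr5:96389861-96389920. The bound was at least 47.7-fold higher. Cxcl9, Cxcl10 and Cxcl13 thus made 3 of 10 genes seen with 5/6Nx alone at a bound of 2-fold or more, against 3.29% of the 17730 genes above background on either array.

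Cxcl14 ran the other way. Its probe at chr13:56390078-56390137 had a surrogate value of 2.87 on the 5/6Nx array and an intensity of 14453 on the sham array. By the bound it was at least 1308-fold lower with 5/6Nx. A second probe, designed on a predicted variant at chr13:56397748-56398037, was near background on both arrays, with 12.6 on the 5/6Nx array (not well above background) and 16.5 on the sham array. Cxcl14 was 1 of 10 genes seen in sham cells alone at a bound of 2-fold or more, against 0.931% of all genes above background on either array. With normexp, another background correction, the 4 bounds were smaller but in the same direction: at least 55.1-fold higher for Cxcl9, 936.3-fold for Cxcl10, 8.46-fold for Cxcl13, and at least 268-fold lower for Cxcl14.

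Cxcl16, the membrane-bound ligand of CXCR6, was somewhat brighter on the 5/6Nx array with both of its probes. The probe at chr11:70269481-70269540 had 4161 on the 5/6Nx array and 2318 on the sham array, a difference of 0.53 or 1.45-fold higher. The probe at chr11:70267780-70267839 had 3504 on the 5/6Nx array and 2394 on the sham array, a difference of 0.24. The direction was the same in both, but neither reached 2-fold.

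**Figure D2:**
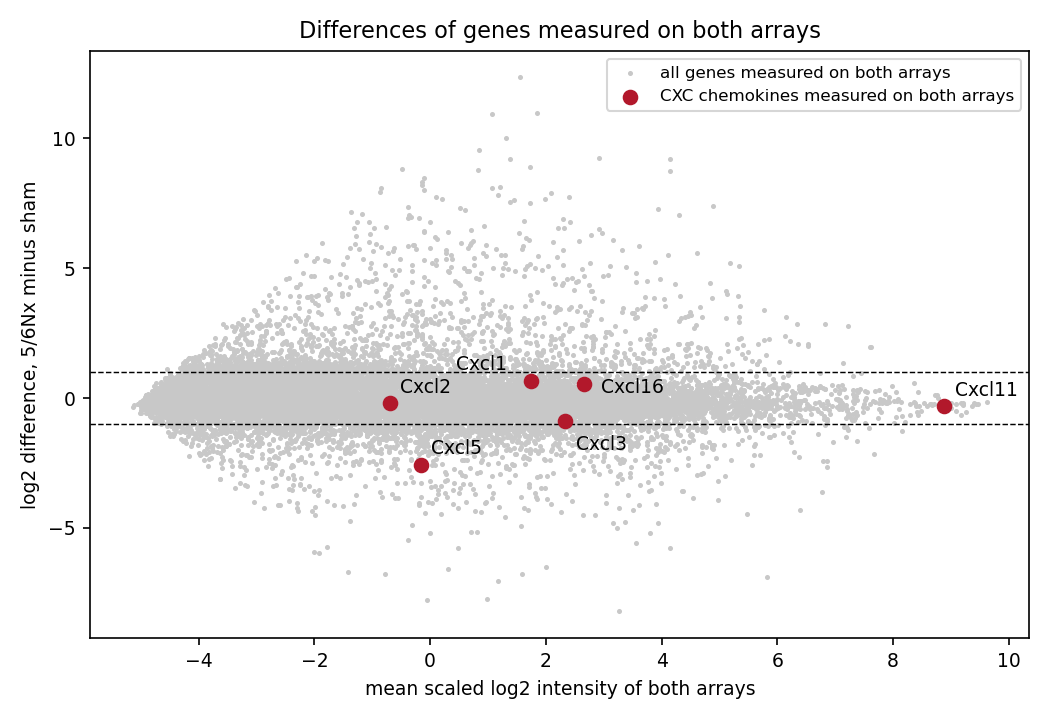
Log2 difference, 5/6Nx minus sham (vertical axis), against the mean scaled log2 intensity of both arrays (horizontal axis) for the 15715 genes measured on both arrays in grey and the 6 CXC chemokines among them in red, with dashed lines at 2-fold. Cxcl5 lies below the lower line at -2.56, and the other 5 lie between the lines.

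Over the 6 CXC chemokines measured on both arrays, the median difference was -0.25, with 2 of 6 above 0 (Cxcl1 and Cxcl16), against a median of -0.12 over all 15715 genes. With the 4 one-sided genes at their bounds, the median over all 10 was 0.17. Under other scalings the median of all genes lay between -0.27 (median scaling) and 0.31 (spike-in scaling), a shift that carries every difference with it. The all-gene split was 1923 higher and 1721 lower, against 1531 and 2231 under median scaling and 3327 and 857 under spike-in scaling. Differences are drawn in the plot of alternative processing, with bounds for the changes of background correction, scaling or value source only. Cxcl1 kept a positive difference (0.52 or more), Cxcl16 too (0.24 to 0.97), and Cxcl3 (-1.03 to -0.45) and Cxcl5 (-2.71 to -2.13) kept negative ones.

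**Figure D3:**
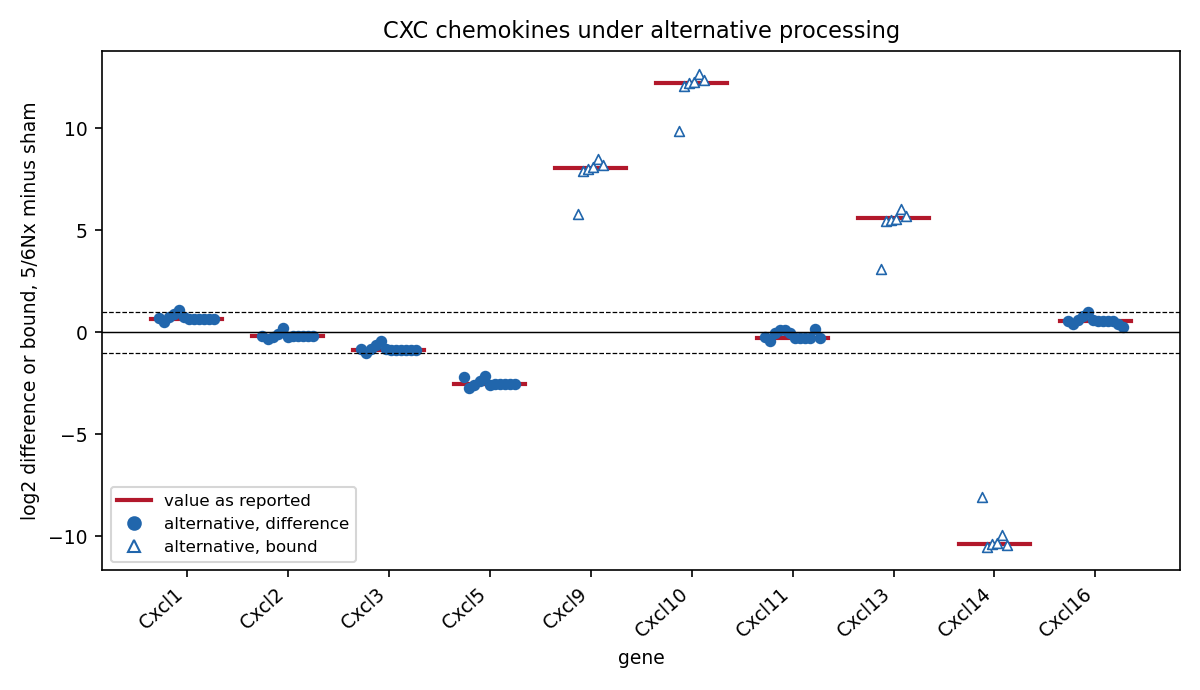
Log2 difference or bound, 5/6Nx minus sham, of each CXC chemokine as reported (red bars) and under alternative processing (blue points for differences, triangles for bounds), with dashed lines at 2-fold. Bounds are drawn only for the changes of background correction, scaling or value source. Under those changes the bounds of Cxcl9, Cxcl10 and Cxcl13 stay above the upper line and that of Cxcl14 below the lower line. Cxcl2 and Cxcl11 have points on both sides of 0.

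The remaining CXC ligands on the array were dimmer on the 5/6Nx array or near background. Pf4 and Ppbp, platelet chemokines (CXCL4 and CXCL7) whose genes lie between Cxcl5 and Cxcl3, were the 2 of 5 measured on both arrays. Pf4 had an intensity of 10232 on the 5/6Nx array and 163186 on the sham array, a difference of -4.31. Ppbp had 3259 on the 5/6Nx array and 16217 on the sham array, a difference of -2.62. Both differences thus pointed the same way as that of Cxcl5. Cxcl17 was barely above background on the 5/6Nx array only (22.4 against 4.92 on the sham array), and Cxcl12 and Cxcl15 were above background on neither.

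The platelet markers beyond Pf4 and Ppbp were mixed. Of 7 platelet markers, which include Pf4 and Ppbp, 6 were measured on both arrays, with 1 higher and 3 lower on the 5/6Nx array by 2-fold or more and a median of -1.61. Over all measured genes 12.2% were higher and 11.0% lower by as much. All 7 markers were above background on the 5/6Nx array and 6 on the sham array. Their summed signal, relative to the 75th percentile, was 27.1 on the 5/6Nx array and 412.1 on the sham array. Pf4 and Ppbp made up most of both sums and 2 of the 3 lower genes, and without them the sum was 2.32 on the 5/6Nx array and 3.64 on the sham array. Of the other 5, Treml1 was lower (-3.81), Clec1b higher (3.59), Gp1bb and Gp9 within 2-fold, and Itga2b above background with 5/6Nx alone. The part of platelets in the Cxcl5 result was not tested.

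Receptors of the set's ligands differed in both directions. Cxcr6, the receptor of CXCL16, had an intensity of 10141 on the 5/6Nx array and 237.6 on the sham array, a difference of 5.11. Cxcr3, the receptor of CXCL9 and CXCL10, had 1174 on the 5/6Nx array and 327.2 on the sham array, a difference of 1.53. Cxcr4, the receptor of CXCL12, was lower, with 601.2 on the 5/6Nx array and 2826 on the sham array, a difference of -2.54. For these 3 the order of the arrays was the same at every probe.

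The other receptors were above background on 1 array only or on neither. Cxcr5, the receptor of CXCL13, had 239.2 on the 5/6Nx array and a background 2.58 on the sham array, at least 15.1-fold higher. Cxcr2, the receptor of the ELR ligands, had 57.1 on the 5/6Nx array and a background 9.69 on the sham array, at least 3.61-fold higher. Ackr3, a scavenger of CXCL12, had a background 3.31 on the 5/6Nx array and 426.2 on the sham array, at least 38.6-fold lower. Ackr1, a scavenger on red cells and venules, was above background on the 5/6Nx array only (at least 1.39-fold), and Cxcr1 on neither.

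CXCR3 and CXCR6 are carried mainly by T and NK cells, and most markers of those cells differed in the same direction as the receptors and as Cxcl9 and Cxcl10. Of the 12 T cell markers listed, 11 had a probe and 10 were measured on both arrays. Of these 10, 8 were higher on the 5/6Nx array by 2-fold or more and 0 lower, with a median of 5.27. Over all measured genes 12.2% were higher and 11.0% lower by as much. Of the T cell markers, Cd4 (0.87) and Cd247 (-0.64) were within 2-fold. Above background were 11 on the 5/6Nx array and 10 on the sham array, where Cd8a was not, and the summed signal was 71.3 on the 5/6Nx array and 7.51 on the sham array. Without Lck, the brightest of them, the sum was 54.8 on the 5/6Nx array and 7.14 on the sham array. Of 9 NK cell markers, 9 were above background on the 5/6Nx array and 5 on the sham array, where Ncr1, Klrb1c, Klre1 and Eomes were not. The 5 seen on both arrays were all higher on the 5/6Nx array by 2-fold or more, against 12.2% of all measured genes. The bounds of the other 4 reached 2-fold, against 3.29% of all genes above background on either array. The summed signal of the 9 was 73.9 on the 5/6Nx array and 0.829 on the sham array. Gzma alone made up 49.1 of the 5/6Nx sum, and without it the sum was 24.8 on the 5/6Nx array and 0.764 on the sham array. The part of such cells in the values of Cxcl9, Cxcl10, Cxcl16 and the receptors was not tested.

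Markers of other cell types that a CD11b and Ly6C sort could hold were mixed within most lists, and a summed signal was often carried by 1 bright probe. Over all measured genes, 12.2% were higher with 5/6Nx by 2-fold or more and 11.0% lower. Of 8 B cell markers, 8 were above background on the 5/6Nx array and 5 on the sham array. Among the 5 seen on both, 2 were higher with 5/6Nx by 2-fold or more and 0 lower, with a median of 0.86 and a summed signal of 4.11 on the 5/6Nx array and 1.82 on the sham array. Of 11 neutrophil markers, 9 were above background on the 5/6Nx array and 7 on the sham array, with 3 of 7 higher (Lcn2, Ly6g and Camp, by 7.31, 4.53 and 2.18), 1 lower (Mmp8, -3.97) and a median of 0.51. Their sum of 318.4 on the 5/6Nx array and 275.0 on the sham array was mostly the Csf3r probe, and without it came to 29.4 on the 5/6Nx array and 32.1 on the sham array.

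The conventional dendritic cell and stromal lists each had 2 genes higher and 1 lower with 5/6Nx by 2-fold or more, too few to give a direction. Under normexp the stromal list had 1 higher and 1 lower. Genes with one-sided bounds of 2-fold or more also split. With 5/6Nx alone they were 1 dendritic cell and 2 stromal markers, against 3.29% of all genes above background on either array. With sham alone there was 1 in each list, against 0.931%. The summed signals of both lists were lower on the 5/6Nx array. Of 9 dendritic cell markers, 7 were above background on the 5/6Nx array and 6 on the sham array, with 2 of 5 higher (Itgae and Batf3, by 4.43 and 4.28), 1 lower (Clec10a, -4.12) and a median of 0.72. Their sum was 8.44 on the 5/6Nx array and 52.2 on the sham array. Without Clec10a it was 5.50 on the 5/6Nx array and 1.16 on the sham array. Of 11 stromal and endothelial markers, 9 were above background on the 5/6Nx array and 8 on the sham array, with 2 of 7 higher (Kdr, by 4.45, and Pecam1), 1 lower (Pdpn, -3.71) and a median of 0.61. The sum was 10.9 on the 5/6Nx array and 40.0 on the sham array. Without Pdpn it was 7.92 on the 5/6Nx array and 1.07 on the sham array.

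Red pulp macrophage markers also split, and there too the sum and the median pointed in opposite directions. All 8 were above background on the 5/6Nx array and 7 on the sham array, with 2 of 7 higher (Spic and Adgre1, by 5.53 and 1.77), 4 lower (C1qa, C1qb, C1qc and Slc40a1, between -2.58 and -1.69) and a median of -1.69. Vcam1 was above background on the 5/6Nx array only, at least 74.3-fold higher. These values are those of the brightest probes. The other probes of Adgre1, Slc40a1 and Hmox1 gave 0.93, -0.21 and -2.82. The sum was 182.1 on the 5/6Nx array and 117.9 on the sham array, mostly Hmox1 and Adgre1. Of these lists only that of B cells had no gene lower by 2-fold or more. Its 2 of 5 higher genes became 1 of 5 under normexp and 0 of 5 at 4-fold. The other lists gave no single direction. The part of these cells in the values of Cxcl13, Cxcl14 and the ELR ligands was not tested.

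The label of monocytes was checked on 7 genes, all well above background on both arrays. Itgam, which encodes CD11b, had an intensity of 31995 on the 5/6Nx array and 33016 on the sham array, a difference of -0.36. Its other probe gave -1.18. Ly6c1 and Ly6c2, near-identical genes of the other sorting antigen whose probes may read each other, were brighter on the 5/6Nx array by 1.98 each. The other 4, Csf1r, Ccr2, Lyz2 and Cd14, lay between -0.89 and 0.30 at their brightest probes, and the median of the 7 was -0.26. The other probe of Lyz2 gave -1.48, beyond 2-fold.

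Genes of the interferon axis, which is known to induce the CXCR3 ligands, were brighter on the 5/6Nx array or about equal at their brightest probes. Of its 16 genes, 14 were measured on both arrays, with 6 higher on the 5/6Nx array by 2-fold or more, 0 lower by as much and a median of 0.55. Over all measured genes 12.2% were higher by that much, 11.0% lower, and the median was -0.12. Measured probes of Ifnar1 ranged from -1.26, beyond 2-fold, to 0.32, and those of Ifnar2 from -0.54 to 0.16. Irf7, a factor of the type I interferon response, had 210033 on the 5/6Nx array and 998.9 on the sham array, a difference of 7.41. Irf1, a factor that binds the ISRE, had 72692 on the 5/6Nx array and 2680 on the sham array, a difference of 4.45. Both were among the 3 largest differences of the axis in genes measured on both arrays. The 2 remaining genes were the interferons themselves, both above background on the 5/6Nx array only. Ifng, made by T and NK cells, had 11298 on the 5/6Nx array and a background 11.5 on the sham array, at least 713-fold higher, and Ifnb1 was at least 4.41-fold higher. Most of the T and NK cell markers given above differed the same way, and the part of those cells in these values was not tested.

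Genes of the NF-kappaB axis, with cytokines that feed it and factors of chemokine mRNA decay, had a similar split. Of 20, 18 were measured on both arrays, with 10 higher on the 5/6Nx array by 2-fold or more, 0 lower by as much and a median of 1.36, against 12.2% higher, 11.0% lower and a median of -0.12 over all measured genes. Il1b, an inducer of ELR ligands, had 19473 on the 5/6Nx array and 82.8 on the sham array, a difference of 7.57, with its lowest measured probe at 4.75. The lymphotoxins Lta (684.7 on the 5/6Nx array and 14.0 on the sham array, a difference of 5.30) and Ltb (4761 on the 5/6Nx array and 128.7 on the sham array, a difference of 4.90), known inducers of CXCL13 in lymphoid stroma, came next. Il1a and Il17a were seen with 5/6Nx alone, at bounds of at least 63.1-fold and 13.4-fold higher. Over the same arrays none of the 4 ELR ligands of the set was 2-fold higher, except Cxcl1 under spike-in scaling. The part of the NF-kappaB axis in the values of the ELR ligands and Cxcl13 was not tested.

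Proteases that cut or shed chemokines were split. Of 12, 9 were measured on both arrays, with 2 higher on the 5/6Nx array by 2-fold or more, 4 lower by as much and a median of -0.50, against 12.2% higher, 11.0% lower and a median of -0.12 over all measured genes. Mmp12, a macrophage elastase that cuts ELR ligands, had 102.2 on the 5/6Nx array and 4560 on the sham array, a difference of -5.79. Mmp8, neutrophil collagenase, had 751.5 on the 5/6Nx array and 9499.9 on the sham array, a difference of -3.97. Anpep, an aminopeptidase, had 4579.9 on the 5/6Nx array and 560.6 on the sham array, a difference of 2.72. Above background on the 5/6Nx array only were 3 more, and the bound of 2 of these reached 2-fold.

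**Figure D4:**
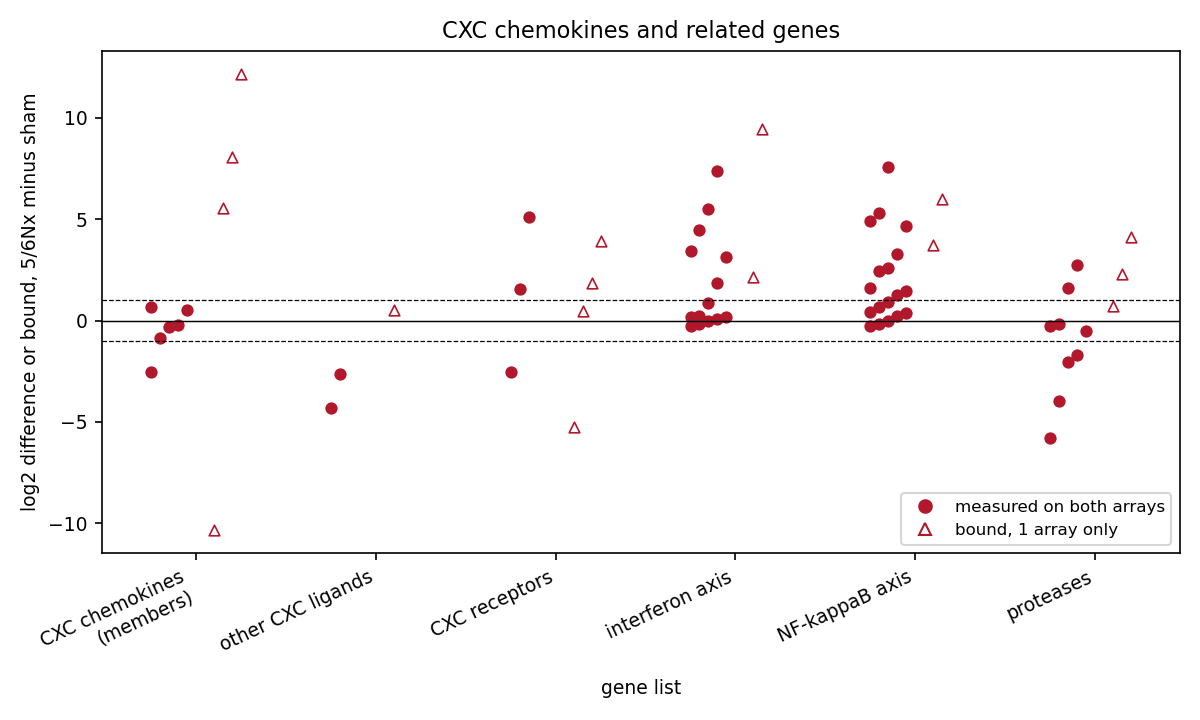
Log2 difference or bound, 5/6Nx minus sham (vertical axis), of the CXC chemokines and of 5 lists of related genes (horizontal axis), with filled points for genes measured on both arrays, triangles for bounds and dashed lines at 2-fold. No gene of the interferon or NF-kappaB axes lies below the lower line, while the CXC chemokines, receptors and proteases have points beyond both lines.

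Of the 10 genes, 8 lie on chromosome 5, most of them in clusters, and differences were not uniform along a cluster. Around Cxcl5, Cxcl3, Cxcl1 and Cxcl2, 9 other genes were considered, the protein-coding genes within the cluster and the 3 nearest on each side. Of these 9, 5 were above background on neither array. The 3 measured on both arrays were all lower on the 5/6Nx array by 2-fold or more, against 11.0% of all measured genes. They were Ppbp and Pf4, given above, and Mthfd2l, a mitochondrial folate enzyme (117.8 on the 5/6Nx array and 514.5 on the sham array, a difference of -2.44). Cxcl3, Cxcl1 and Cxcl2 lie between Pf4 and Mthfd2l in gene order and had differences of -0.88, 0.67 and -0.20. Cxcl5, next to Ppbp, had a difference of -2.56.

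Around Cxcl9, Cxcl10 and Cxcl11, 7 other genes were considered, of which 5 were measured on both arrays. Art3, which lies between Cxcl9 and Cxcl10, had 864.5 on the 5/6Nx array and 714.8 on the sham array, a difference of -0.036. Naaa, a lipid amidase on the Cxcl9 side, had 4546 on the 5/6Nx array and 1166 on the sham array, a difference of 1.65. Scarb2, a lysosomal membrane protein on the Cxcl11 side, had 1855 on the 5/6Nx array and 6999 on the sham array, a difference of -2.23. The contrast of Cxcl9 and Cxcl10 was thus not seen at the gene between them.

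**Figure D5:**
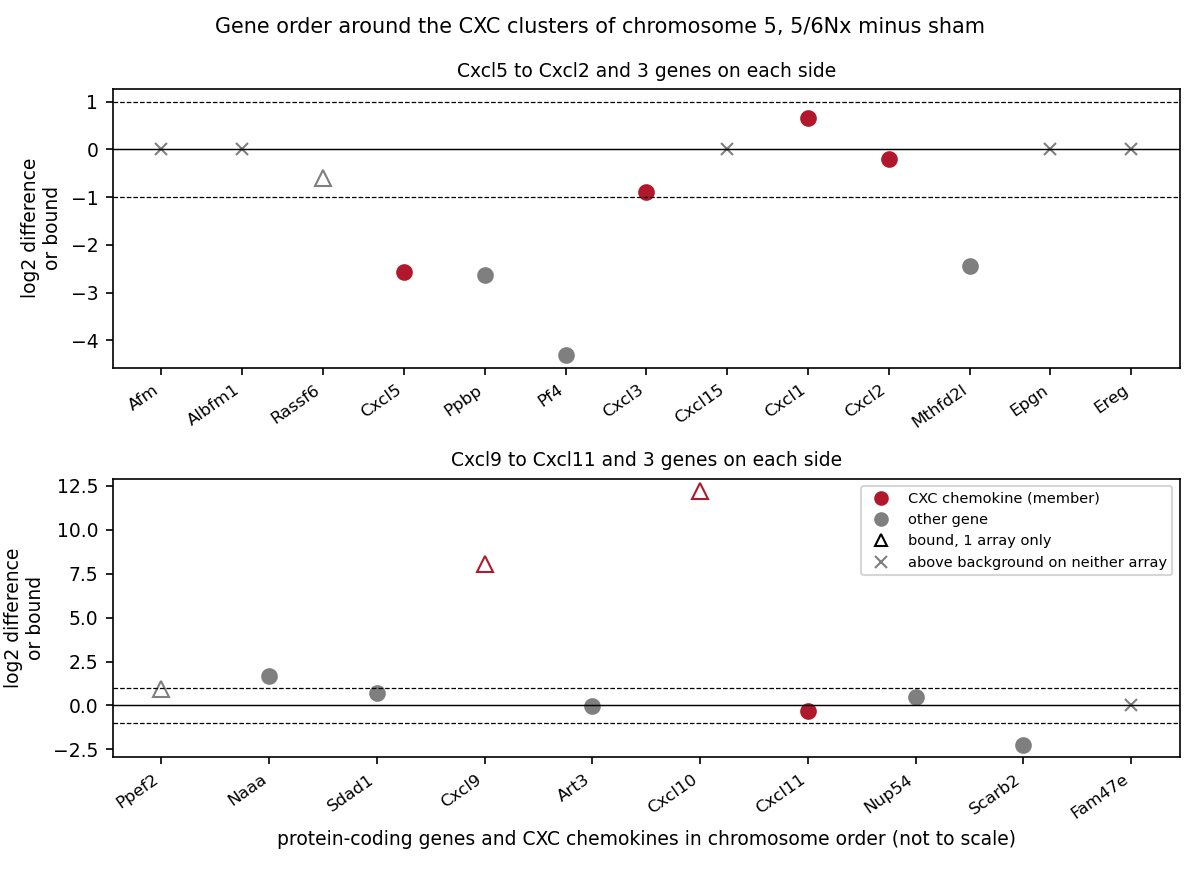
Log2 difference or bound, 5/6Nx minus sham, of the genes in chromosome order (not to scale) around the Cxcl5 to Cxcl2 cluster (upper panel) and the Cxcl9 to Cxcl11 cluster (lower panel), with CXC chemokines of the set in red, other genes in grey, triangles for bounds and crosses at 0 for genes above background on neither array. Cxcl9 and Cxcl10 stand at bounds of 8.07 and 12.19 on either side of Art3 at -0.036.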

How the data were processed

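Splenic monocyte RNA was measured on 1 array per group. The authors deposited linear intensity values from Agilent Feature Extraction (version 9.5.1.1 in the submitters' processing notes, 10.7.1.1 in the parameter block). These intensities were background-subtracted and detrended, but not scaled between arrays, per the file headers. The authors' deposited value table, also linear intensity, has an unstated normalization and medians of 48.2 (5/6Nx) and 47.5 (sham); it served as an alternative. Both arrays shared a slide and a scan, per the file headers.

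Control spots and outlier flags (47 on the 5/6Nx array, 41 on the sham array) were left out. No spot was saturated. Log2 intensities minus each array's 75th percentile were compared. A gene was measured when a probe was well above background on both arrays, and its brightest such probe stood for it. Probes were named through RefSeq by accession (32994), symbol (10224) or synonym (520), with 12867 named by the files only. Probe positions are the files', on mm9; promoter positions are RefSeq's, on GRCm38.p6; exon and UTR annotation was not used here.

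All members, other CXC ligands and receptors were named; of 3 further lists the 3 measured genes with the largest differences, 1 of which is not reported here; of the neighbours those at least 2-fold apart. Other genes named, including Art3 and one-sided or marker genes, were chosen after their values were seen. The members and lists were chosen with earlier results of these data known. The code was tested on simulated data. Alternatives covered background correction, scaling, value source, filters, flags, probe choice and threshold. Tools were Python 3.11.15, numpy 2.4.6, pandas 2.3.3, matplotlib 3.10.9, R 4.3.3 and limma 3.58.1 (normexp, offset 50; quantile).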

Additional observations from a re-analysis of the deposited data

How the results depend on the processing

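No replicate could be left out and no paired analysis was possible because each group has 1 array. Of the 6 CXC chemokines measured on both arrays, the number lower with 5/6Nx by 2-fold or more was 1, but 2 under median scaling (Cxcl3 joins Cxcl5), 2 of 10 with no filter on dim probes, and 0 of 4 with the stricter filter, which leaves Cxcl2 and Cxcl5 out. The number at least 2-fold higher was 0, but 1 under spike-in scaling (Cxcl1), 1 of 8 with the looser filter, and 3 of 10 with no filter, where the one-sided genes enter with background values. The number above 0 was 2, but 3 under loess and with the mean over probes, 3 of 8 with the looser filter, 4 under spike-in scaling (Cxcl2 and Cxcl11 turn) and 5 of 10 with no filter. The median difference of -0.25 was -0.40 under median scaling, -0.14 under quantile normalisation, 0.034 under loess, 0.18 under spike-in scaling, -0.13 in the authors' deposited table, 0.17 with no filter, 0.12 with the stricter filter and -0.020 with the mean over probes, so its sign depends on these choices. The 4 one-sided genes kept a bound of at least 2-fold under all 6 changes of background correction, scaling or value source. Their smallest bounds came with normexp. With the looser filter the only gene counted as 2-fold lower, of 8 measured, was Cxcl5. Cxcl14 was thus not counted as lower there, and its second probe differed by -0.70. Among all genes the counts of 1923 higher and 1721 lower became 1164 and 1234 under normexp, 2871 and 2223 with the looser filter, 3679 and 2700 with no filter, 708 and 911 with the stricter filter, and 715 and 426 at 4-fold. Of the 46 measured genes in the related lists, 27 were at least 2-fold apart, and 20 at 4-fold; the medians of the 5 lists kept their sign under every alternative. Signal over background limits the 4 one-sided genes, whose dim side has no measured level.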
